A study of Mus musculus with 72 samples.

Results

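The growth hormone and insulin-like growth factor (IGF) axis was followed here through 9 genes: Ghr, Stat5b, Bcl6, Cish, Socs2, Igf1, Igfals, Igfbp1 and Igfbp2. They were taken by symbol from the liver gene count table, which held all 9 among 22823 genes, and all 9 passed the filter on low counts that left 20249 genes for testing. The table of the suprachiasmatic nucleus (SCN), the brain nucleus that holds the central circadian clock, listed 6 of them among 15759 genes. Igf1, Igfals and Igfbp1 had no row there. The mice were C57BL/6 animals of 8 to 12 weeks that ate either a methionine- and choline-deficient (MCD) diet, a model of fatty liver disease, or an isocaloric control diet for 11 days. All were kept in light-dark cycles for 10 days and then in darkness for the last day, and were killed at 6 circadian times (CT), every 4 h between CT0 and CT20. A group of 1 diet and 1 time, 12 in all, held 3 livers, 2 from males and 1 from a female by the sample labels, which makes 18 livers per diet, and the SCN samples were laid out in the same way. No treatment other than the diet and the time separated the groups, and every animal was in constant darkness when it was sampled.

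Growth hormone leaves the pituitary in pulses and binds its receptor, GHR, on hepatocytes. The receptor activates the kinase JAK2, which phosphorylates STAT5B, and STAT5B enters the nucleus and switches on genes such as Igf1, Igfals, Socs2 and Cish, while the repressor BCL6 competes with it at part of its sites. IGF1, made mainly in the liver, travels in the blood bound to IGF binding proteins and the acid-labile subunit encoded by Igfals. In rodents the pulses of growth hormone differ between the sexes and set the male or female pattern of many liver genes.

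Liver libraries held 52.6 to 86.7 M gene counts. Levels are given as CPM, read counts relative to library size, scaled by the TMM method, which corrects for differences in RNA composition. The mean TMM factor was 0.917 ± 0.0739 for the control livers and 1.096 ± 0.0793 for the MCD livers (SD, n = 18 each), and scaling by library totals alone moved the median diet change of all genes from 0.02 to 0.27 on the log2 scale. The livers fell into 2 kinds by the mitochondrial transcript mt-Nd6, with 21 libraries at 32.8 to 133 CPM (8 control, 13 MCD) and 15 at 379 to 1038 CPM (10 control, 5 MCD), so within-kind values are given beside the diet changes. 1 of the control males at CT8, called control CT08 a, had a Ghr level of 258 CPM, below the 365 to 673 CPM of the other 17 controls, and results that rest on it are given with and without it. All 6 hepatocyte markers examined were present, with a summed level of 76940 to 114824 CPM on control and 56302 to 119009 CPM on MCD; 3 of the 6 were called lower on MCD and 0 higher, with a median change of -0.13 (log2). All 8 markers of Kupffer cells and macrophages were called higher on MCD, where their summed level was 371 to 820 CPM against 276 to 681 CPM on control, and the part of both lists in the results below was not tested. In whole liver, fewer cells of a type and less RNA per cell cannot be told apart.

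The diet test asked whether the mean level over the 6 times differed between MCD and control. In this test 8 of the 9 genes passed an adjusted p of 0.05, Ghr, Stat5b, Bcl6, Cish, Igf1 and Igfals being lower on MCD and Igfbp1 and Igfbp2 higher, and Socs2 did not pass. Of all genes tested, 46.6% passed, 25.3% higher and 21.2% lower. Ghr, Stat5b, Igf1, Igfals, Igfbp1 and Igfbp2, 6 of the 9, passed and kept 1 direction at all 6 times, as did 28.8% of all genes. Ghr, Igf1, Igfbp1 and Igfbp2 changed with the smallest adjusted p of the 9 genes together with Stat5b, whose change was the smallest of those called. Adjusted p-values are from the quasi-likelihood test of edgeR with Benjamini-Hochberg adjustment over all genes unless another tool is named.

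**Figure D1:**
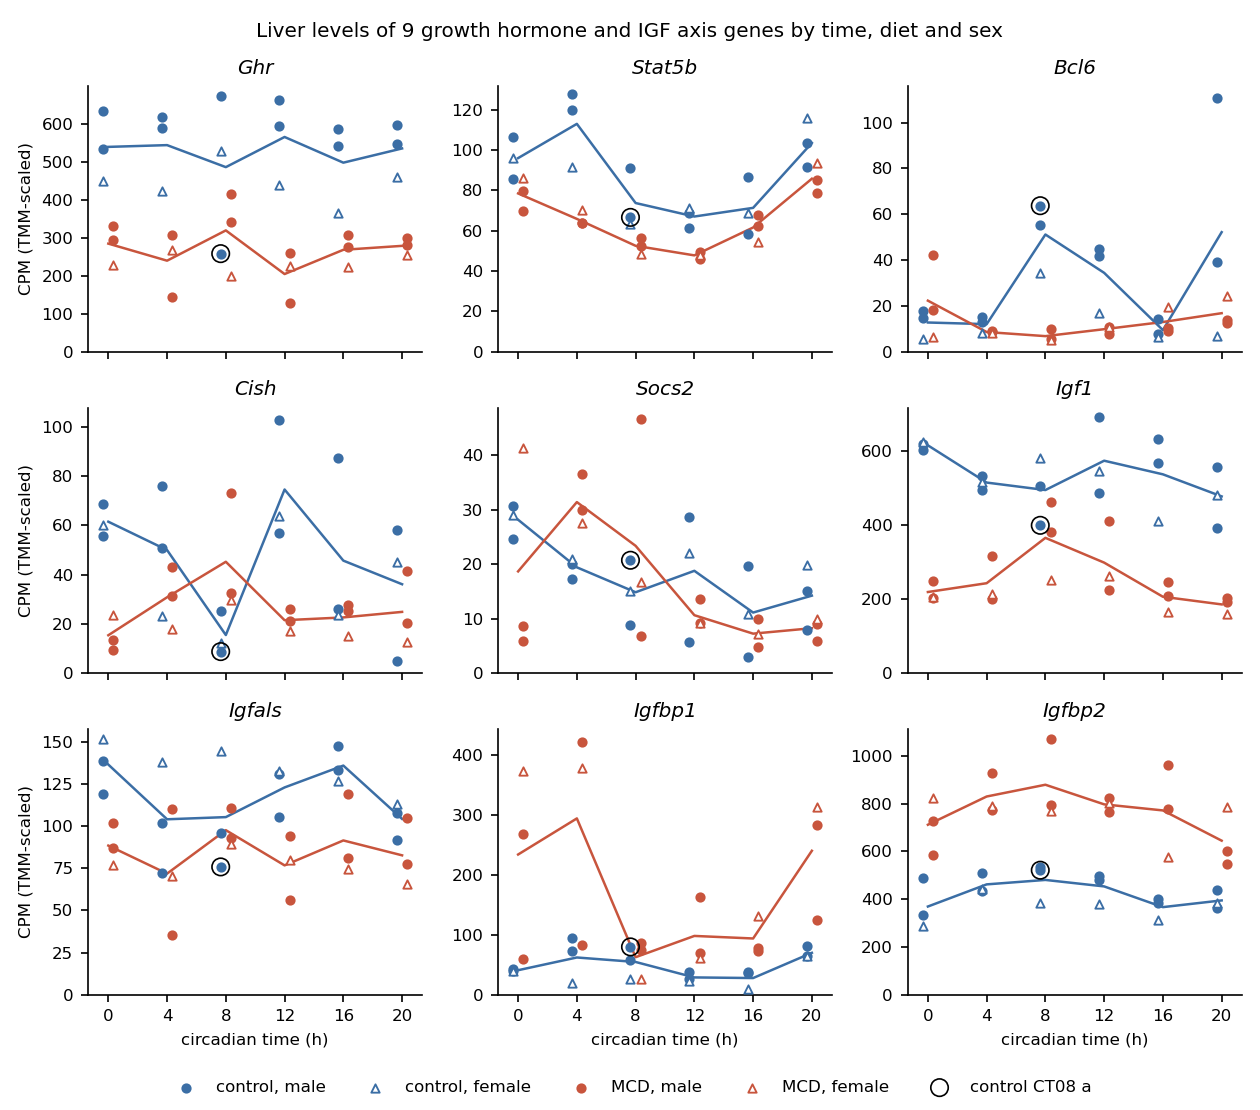
Levels of the 9 genes in every liver library (CPM, TMM-scaled) against circadian time in hours; lines join the means of 3 livers, filled circles are males and open triangles females, and the ring marks the library control CT08 a. Igfbp2 is the one gene in which all 18 MCD livers lie above all 18 controls, whereas the ranges of the diets overlap at 3 of the 6 times for Cish (CT4, CT16 and CT20) and at 5 for Socs2, all but CT4.

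Per kilobase of annotated exon, Igfbp2 had the highest control level of the 9 genes, 228 ± 40.0 CPM per kb (SD, n = 18), with no overlap with the next gene. Ghr and Igf1 followed at 58.3 ± 12.1 and 54.1 ± 8.46 CPM per kb, with overlapping ranges of 28.5 to 74.3 and 39.7 to 69.9. Igfals at 37.3 ± 7.59 CPM per kb and Igfbp1, which ran from 5.81 to 61.7 CPM per kb, also overlapped. Stat5b was at 15.8 ± 3.84, Cish at 7.35 ± 4.35, Bcl6 at 4.27 ± 4.08 and Socs2 at 1.86 ± 0.852 CPM per kb, and every pair of neighbours in this order after Igfbp2 overlapped in range. On MCD the order by mean began with Igfbp2 at 418 ± 73.7 and Igfbp1 at 112 ± 85.7 CPM per kb (SD, n = 18). Igfbp1 ran from 17.4 to 277 CPM per kb and overlapped Ghr, which was at 29.4 and ran from 14.1 to 46.0. Ghr in turn overlapped Igfals at 26.8 and Igf1 at 25.6 CPM per kb. Lengths came from GENCODE M21 and count every annotated exon, so the order holds only as far as livers use those exons.

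Ghr encodes the growth hormone receptor and lies on chromosome 15, positions 3317760 to 3583492 on the minus strand of GRCm38. Its level ran from 258 to 673 CPM with a median of 545 CPM in the 18 control livers, and from 128 to 416 CPM with a median of 271 CPM on MCD. The ranges overlapped, with 7 of 18 MCD livers below every control, but this rested on control CT08 a, without which 17 of 18 MCD livers lay below every other control. Averaged over the times it changed by -0.997 ± 0.12 (SE) on the log2 scale, 2.00-fold lower on MCD, with an adjusted p of 1.5e-07. It was -0.88 within the low mt-Nd6 kind and -1.22 within the high kind (edgeR, adjusted p = 0.0033 and 0.00072). Over the day its fitted peak-to-trough range was 0.04 on control and 0.20 on MCD on the log2 scale, and neither passed (edgeR, adjusted p = 0.99 and 0.81).

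Stat5b encodes the transcription factor that carries the receptor's signal to the nucleus, and lies on chromosome 11, positions 100780731 to 100850724, minus strand. Control livers ranged from 58.4 to 128 CPM (median 88.9) and MCD livers from 46.1 to 93.7 CPM (median 63.7), with 7 of 18 MCD livers below all controls. The mean change was -0.42 ± 0.06 (SE), 1.34-fold lower on MCD (edgeR, adjusted p = 1.9e-06), and -0.41 and -0.53 within the low and high mt-Nd6 kinds (adjusted p = 5e-04 and 0.011). With library totals alone it was -0.16 (edgeR, adjusted p = 0.025).

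Bcl6 encodes a zinc finger repressor and lies on chromosome 16, positions 23965052 to 23988852, minus strand. It had the largest coefficient of variation of the 9 genes on the control diet, 95.6%, and ran from 5.61 to 111 CPM around a median of 15.9 CPM. On MCD it ran from 4.89 to 42.2 CPM around a median of 9.89 CPM, and 1 of 18 MCD livers lay below every control. The mean change was -0.82 ± 0.25 (SE), 1.77-fold lower on MCD (edgeR, adjusted p = 0.0097), but the direction was lower at 4 of the 6 times only. Within the low and high mt-Nd6 kinds the change was -0.75 and -0.92 and neither passed (edgeR, adjusted p = 0.30 and 0.41). At CT8, the only single time at which Bcl6 passed, the control livers were at 34.3, 63.7 and 55.4 CPM and the MCD livers at 9.70, 5.64 and 4.89 CPM, which do not overlap, a change of -2.91 ± 0.65 (SE, edgeR, adjusted p = 0.022). This call was lost when any 1 of the 3 MCD livers at CT8, the control female or the control male b was left out, with the change between -3.13 and -2.74 throughout, and with the replicate block (edgeR, -2.75, adjusted p = 0.12), a fit that leaves 1 control at CT8, the female, against the 3 MCD livers. Gm37419, on the opposite strand, overlaps exons of Bcl6, and its reads can be told apart only if counting used the strand.

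The window of 300 bases around the second RefSeq start of Bcl6 was 1 of 11 among 32851 promoter windows (0.0335%) that held 3 or more copies of TTCNNNGAA, the palindrome that STAT5 dimers recognise. The motif was searched on both strands, which read the same for it, and 8.30% of all windows held at least 1. The stretch with the 3 copies (chr16:23981353-23981461, GRCm38.p6, minus strand) lies within the gene and overlaps no GENCODE M21 exon. It is shown because Bcl6 and the STAT5 target Cish were opposed on MCD by Pearson r (given with the relations between genes). That relation did not pass by rank or on control, and any part of the motif in it was not tested. Capitals mark the motif.
Bcl6: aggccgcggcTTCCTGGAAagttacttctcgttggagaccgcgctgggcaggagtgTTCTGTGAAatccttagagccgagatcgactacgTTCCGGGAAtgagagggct
The copies began 168, 122 and 88 bases before that start. The window of the first Bcl6 start held 1 copy, 118 bases before it. These matches are descriptions of the sequence, and no binding was measured in these samples.

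Cish and Socs2 encode feedback inhibitors of the suppressor of cytokine signalling family, which growth hormone induces and which then dampen the receptor. Cish lies on chromosome 9, positions 107296026 to 107302784, plus strand, and reads from it cannot be told from those of 2 genes on the opposite strand that share exon sequence unless counting used the strand. Its RefSeq start carries 2 copies of the same motif, the first at the start base itself and the second 11 bases after it (chr9:107296649-107296678, GRCm38.p6, plus strand); the share of all windows with 2 or more copies was 0.457%.
Cish: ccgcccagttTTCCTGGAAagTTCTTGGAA
Cish ran from 4.97 to 103 CPM on control (median 53.3) and from 9.29 to 73.3 CPM on MCD (median 24.3), and no MCD liver lay outside the control range. The mean change was -0.75 ± 0.25 (SE), 1.68-fold lower on MCD (edgeR, adjusted p = 0.016). It was -0.49 with library totals alone and -0.61 with limma-voom, and passed in neither (adjusted p = 0.093 and 0.058), and it was -1.05 and -0.41 within the low and high mt-Nd6 kinds (adjusted p = 0.053 and 0.76). Among the single times, CT0 alone passed, with controls at 68.6, 55.8 and 59.9 CPM and MCD livers at 13.4, 9.29 and 23.4 CPM, which do not overlap (change -1.91 ± 0.63, edgeR, adjusted p = 0.047). That adjusted p ran up to 0.18 as single libraries were left out, and 21 of 36 omissions lost the call, as did 4 of 6 alternatives (library totals alone, no low-count filter, the replicate block and a term for the library kind, edgeR, adjusted p up to 0.064). At CT8 the order was the other way round, at 12.3, 8.73 and 25.3 CPM on control against 32.5, 73.3 and 29.7 CPM on MCD (change 1.53 ± 0.62), which did not pass (edgeR, adjusted p = 0.28).

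Socs2, on chromosome 10, positions 95385362 to 95417180, minus strand, ran from 2.95 to 30.7 CPM on control (median 19.7) and from 4.79 to 46.6 CPM on MCD (median 9.51). Its mean change of -0.25 ± 0.27 (SE) did not pass (edgeR, adjusted p = 0.48), and its direction depended on the setting, at 0.00 with library totals alone and 0.11 within the high mt-Nd6 kind against -0.72 within the low kind. The 3 MCD livers above every control were a female at CT0 with 41.4 CPM and males at CT4 and CT8 with 36.6 and 46.6 CPM. The set of RefSeq promoter windows used here covered 8 of the 9 genes, all but Socs2. Counts of Socs2 may share reads with Gm9847, which GENCODE M21 lists as a processed pseudogene: 83.7% of its 31-base words also occur in Socs2 transcripts, and its level was the most alike to that of Socs2 of all genes (Pearson r = 0.97 over 36 livers).

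Igf1 encodes the main hormone that the liver releases under growth hormone, and lies on chromosome 10, positions 87858265 to 87937042, plus strand. It ran from 394 to 692 CPM on control (median 539) and from 160 to 463 CPM on MCD (median 219), and 16 of 18 MCD livers lay below every control. The 2 MCD livers within the control range were a male at CT8 with 463 CPM and a male at CT12 with 410 CPM. Igf1 changed by -1.13 ± 0.09 (SE), 2.18-fold lower on MCD (edgeR, adjusted p = 2.1e-10), and -1.14 and -1.06 within the low and high mt-Nd6 kinds (adjusted p = 9.6e-05 and 0.0027).

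Igfals encodes the acid-labile subunit, which joins IGF1 and a binding protein in the large complex that keeps the hormone in the circulation. It lies on chromosome 17, positions 24865997 to 24882010, plus strand. Control livers ran from 72.2 to 152 CPM (median 123) and MCD livers from 35.2 to 119 CPM (median 83.8), with 4 of 18 MCD livers below all controls. The mean change was -0.47 ± 0.12 (SE), 1.39-fold lower on MCD (edgeR, adjusted p = 0.0021), and -0.49 and -0.56 within the low and high mt-Nd6 kinds (adjusted p = 0.014 and 0.046). With library totals alone it was -0.23 and did not pass (edgeR, adjusted p = 0.064). No single time passed for Igfals, although the change was negative at all 6. It has 3 RefSeq starts, of which the windows of the first and the second held the motif once, at 236 and 58 bases before the start. The windows of Ghr, Stat5b, Igf1, Igfbp1 and Igfbp2 did not hold these letters. The only Igf1 window searched, positions 87860861 to 87861160, lies within the second leader exon of that gene. The first Igf1 leader exon, positions 87859068 to 87859412, had no window and was not searched.

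Igfbp1 and Igfbp2 encode secreted IGF binding proteins; hepatic Igfbp1 is known as a gene that insulin lowers and fasting raises within hours. Igfbp1, on chromosome 11, positions 7197782 to 7202546, plus strand, ran from 8.86 to 94.0 CPM on control (median 39.8) and from 26.6 to 422 CPM on MCD (median 106), and 9 of 18 MCD livers lay above every control. Igfbp1 changed by 1.76 ± 0.28 (SE), 3.39-fold higher on MCD (edgeR, adjusted p = 1.1e-05), and 1.85 and 1.44 within the low and high mt-Nd6 kinds (adjusted p = 0.014 and 0.0070). At CT8 the diets overlapped, with 25.7, 79.7 and 58.3 CPM on control against 86.3, 74.7 and 26.6 CPM on MCD (change 0.19 ± 0.65). At CT4 they did not all separate either: the MCD livers were at 422, 82.1 and 378 CPM and the controls at 72.4, 94.0 and 19.8 CPM (change 2.35 ± 0.69, edgeR, adjusted p = 0.019).

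Igfbp2, on chromosome 1, positions 72824503 to 72852474, plus strand, ran from 286 to 536 CPM on control (median 417) and from 548 to 1073 CPM on MCD (median 782). All 18 MCD livers lay above all 18 controls, control CT08 a included, a separation upward that 0.0889% of the genes tested showed. Igfbp2 changed by 0.88 ± 0.08 (SE), 1.84-fold higher on MCD (edgeR, adjusted p = 1.1e-09), and 0.89 and 0.74 within the low and high mt-Nd6 kinds (adjusted p = 6.9e-05 and 0.0013). With library totals alone it was 1.14.

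At single times the test compared 3 MCD with 3 control livers, so that 54 pairs of gene and time were examined and 22 passed. Igfbp2 rose at all 6 times, with changes between 0.72 and 1.07 (log2). Its smallest, at CT20, was 0.45 without the MCD female at CT20 and 0.64 without the control male 1 at CT20, and passed in neither case (edgeR, adjusted p = 0.15 and 0.071). At CT8 it was lost without the control female, the control male b, the MCD male 2 or the MCD female of that time (adjusted p up to 0.11). Igf1 and Ghr each fell at 5 times, all but CT8, where their changes of -0.47 ± 0.22 and -0.65 ± 0.29 (SE) did not pass (edgeR, adjusted p = 0.36 and 0.33). The 5 Igf1 calls held in all 36 omissions of single libraries. The Ghr calls at CT0 and CT20 were lost without any 1 of the 6 livers of that time (adjusted p up to 0.11 at both). The Ghr call at CT16 was lost without any of 5 of its 6 livers, all but the control female, or without the control male 2 at CT4 (adjusted p up to 0.13), and with limma-voom or a term for the library kind (0.053 and 0.057). The Ghr call at CT4 was lost without the MCD male 1 of that time (0.061). Igfbp1 rose at CT0 and CT4, by 2.58 ± 0.69 and 2.35 ± 0.69, and 3 and 4 omissions, each of a liver of that time, lost these calls (edgeR, adjusted p up to 0.11 and 0.090). Stat5b fell at CT4 and CT12, by -0.78 ± 0.15 and -0.49 ± 0.15. At CT12 it was -0.12 with library totals alone (edgeR, adjusted p = 0.58), and 4 omissions lost the call, those of the control male 1, the control female and the MCD males 1 and 2 of that time (adjusted p up to 0.087). Bcl6 and Cish each passed at 1 time, as given above. By time, 5 genes passed at CT0 and at CT4, 2 at CT8, 4 at CT12 and 3 each at CT16 and CT20. Of all genes, 12.6%, 18.2%, 1.3%, 15.2%, 12.5% and 11.3% passed at CT0, CT4, CT8, CT12, CT16 and CT20. CT8 is the time of control CT08 a. Without this library the Ghr level of the 2 remaining controls at CT8 was 527 and 673 CPM against 200 to 416 CPM on MCD, and its change of -0.999 passed (edgeR, adjusted p = 0.020). The Igf1 change at CT8 was then -0.65 and did not pass (adjusted p = 0.091). Without it 25 pairs passed in place of 22, Ghr and Stat5b at CT8 and Cish at CT12 being added. The share of all genes that passed was then higher at every time, 14.8%, 27.9%, 9.02%, 23.0%, 18.9% and 17.2% in the same order.

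**Figure D2:**
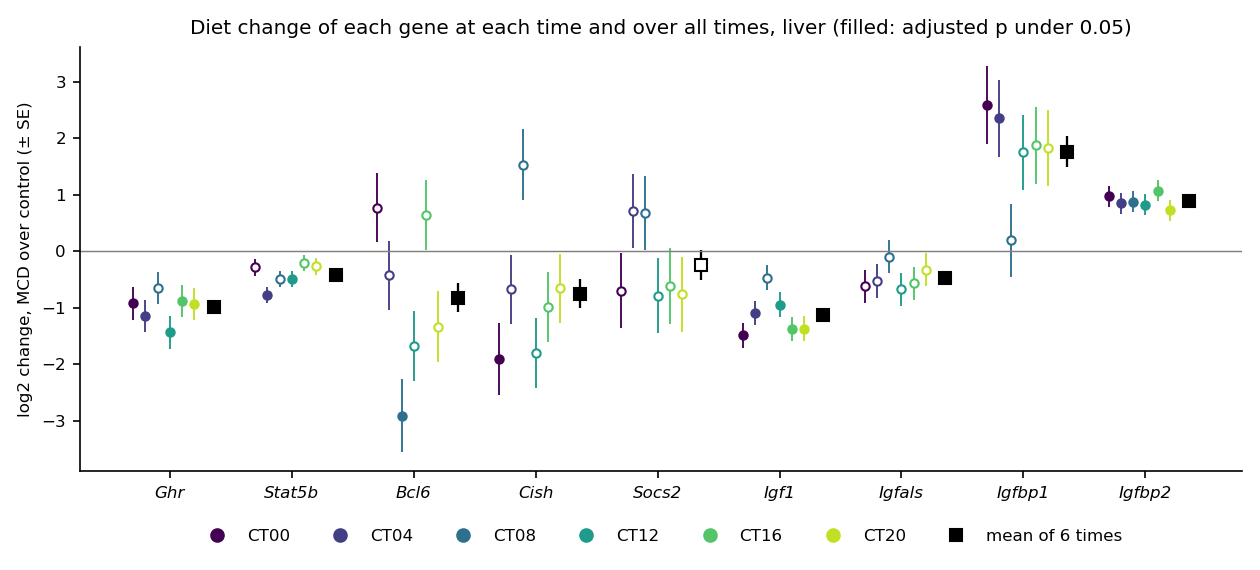
log2 change of each gene on MCD over control at each time (circles, 3 against 3 livers) and over all times (squares, 18 against 18), with standard errors as bars; filled symbols passed an adjusted p of 0.05. Igfbp2 and Ghr keep one direction at all 6 times, while Bcl6, Cish and Socs2 cross 0.

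A 24 h wave fitted to the 6 time means served as the test of rhythm. On the control diet 1 of 9 genes passed, Stat5b, against 17.8% of all genes. On MCD 4 passed, Stat5b, Socs2, Igf1 and Igfbp1, against 28.2% of all genes. Stat5b had a fitted range of 0.74 on control and 0.83 on MCD (log2, edgeR, adjusted p = 3e-04 and 3.9e-05) and peaked at 0.50 ± 0.85 h and 22.3 ± 0.39 h (SE). Its control mean was highest at CT4 and lowest at CT12, at 113 ± 18.9 and 67.0 ± 5.20 CPM (SD, n = 3), and its MCD mean was highest at CT20 and lowest at CT12, at 85.8 ± 7.58 and 47.7 ± 1.56 CPM.

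Igf1 had a range of 0.88 on MCD (log2, edgeR, adjusted p = 0.0016) with a peak at 8.47 ± 0.85 h (SE), and 0.04 on control (adjusted p = 0.99). Its MCD mean was 366 ± 106 CPM at CT8 and 186 ± 22.9 CPM at CT20 (SD, n = 3). Socs2 on MCD had a range of 2.22 (edgeR, adjusted p = 0.012) and a peak at 4.92 ± 1.06 h; the 3 MCD livers at CT4 were between 27.7 and 36.6 CPM, and those at CT16 at 9.86, 4.79 and 7.09 CPM. Igfbp1 on MCD had a range of 2.14 (edgeR, adjusted p = 0.015) and a peak at 23.3 ± 1.41 h. This call was lost without the MCD female at CT0, the MCD male 1 at CT12 or the MCD female at CT12 (edgeR, adjusted p up to 0.066).

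The difference in rhythm between the diets passed for none of the 9 genes, against 4.87% of all genes. An unadjusted p under 0.05 was found for 3 of the 9 (Stat5b, Bcl6 and Igf1) and for 4030 of all 20249 genes. The rhythm difference was called for 0 by limma-voom and for 2, Igf1 and Bcl6, by DESeq2, which called 938 and 2060 of all 20249 genes. The Igf1 difference had a range of 0.89 with an adjusted p of 0.074 in edgeR and 0.014 in DESeq2. It also passed in edgeR with library totals alone (adjusted p = 0.045) and without the control female at CT8, the MCD male 1 at CT4, the MCD female at CT8 or the MCD male 2 at CT12, but not with limma-voom (adjusted p = 0.083), the replicate block (range 0.64, edgeR, adjusted p = 0.38) or without control CT08 a (edgeR, adjusted p = 0.11), so for Igf1 the call depends on the tool, the scaling and the libraries. A rhythm called on MCD and not on control is not shown to differ between the diets for Socs2 or Igfbp1. Bcl6 had a range of 1.56 on MCD that did not pass in edgeR (adjusted p = 0.059) and passed in DESeq2 (adjusted p = 0.030), and in edgeR without the control male 2 or the control female at CT20, the MCD female at CT0, the MCD female at CT12 or the MCD male 2 at CT20. It had its highest MCD mean at CT0, at 22.2 ± 18.3 CPM, while its control mean was 51.1 ± 15.1 CPM at CT8 and 52.2 ± 53.3 CPM at CT20 (SD, n = 3).

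Sex was compared because growth hormone secretion differs between male and female mice. Averaged over the diets, the difference between 12 female and 24 male livers passed for none of the 9 genes, against 10.3% of all genes. An unadjusted p under 0.05 was found for 3 of the 9 and for 4434 of all 20249 genes. Both limma-voom and DESeq2 called 1 of the 9, Bcl6, and they called 1951 and 2640 of all genes. Females minus males, Ghr differed by -0.29 ± 0.13 (SE, edgeR, adjusted p = 0.17). This value turned on control CT08 a, a male: without it the difference was -0.35 with an adjusted p of 0.024. On the control diet the 6 females had 365 to 527 CPM of Ghr and the 12 males 258 to 673 CPM, 258 CPM being the library control CT08 a. This difference was -0.35 and did not pass (edgeR, adjusted p = 0.25), and without that library it was -0.46 with an adjusted p of 0.037.

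On the control diet alone Bcl6 was lower in females, against 9.87% of all genes that differed by sex there. The 6 control females ran from 5.61 to 34.3 CPM (median 7.47) and the 12 control males from 7.87 to 111 CPM (median 28.5), a difference of -1.34 ± 0.36 (SE, edgeR, adjusted p = 0.015). Without the control female at CT20 it was -1.04 and did not pass (adjusted p = 0.059). Igfbp2 differed by -0.30 ± 0.11 between the sexes on control (SE, edgeR, adjusted p = 0.089), with 286 to 441 CPM in females and 334 to 536 CPM in males. It did not pass in edgeR, and passed in DESeq2 (adjusted p = 0.033) and in edgeR without the MCD female at CT16 (adjusted p = 0.047). For Bcl6 on MCD the 6 females ran from 4.89 to 24.4 CPM (median 9.62) and the 12 males from 5.64 to 42.2 CPM (median 9.89), a difference of 0.03 ± 0.34 (edgeR, adjusted p = 0.99). On MCD 0 of the 9 genes differed by sex in edgeR, limma-voom or DESeq2, against 2.23% of all genes called in edgeR. An unadjusted p under 0.05 was found there for 1 of the 9 and for 2545 of all 20249 genes. Bcl6 fell on MCD in males, by -1.27 ± 0.27 (SE, edgeR, adjusted p = 0.00068), and its change in females was 0.10 ± 0.39 (adjusted p = 0.91). The test of the difference itself, females minus males, gave 1.37 ± 0.48 and did not pass in edgeR (adjusted p = 0.18) or limma-voom, and passed in DESeq2.

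No member passed that sex-by-diet test in edgeR, against 1.77% of all genes. An unadjusted p under 0.05 was found for 3 of the 9, Bcl6, Igfals and Igfbp1, and for 2483 of all 20249 genes. Igfbp1 changed by 2.55 ± 0.46 in females and 1.37 ± 0.31 in males, and both passed (SE, edgeR, adjusted p = 0.00025 and 0.0011), while their difference of 1.18 ± 0.55 did not (adjusted p = 0.37). Igfals fell by -0.83 ± 0.19 in females (edgeR, adjusted p = 0.0024), and its change of -0.29 ± 0.14 in males did not pass (adjusted p = 0.091) in the full set; it passed at -0.35 without control CT08 a (adjusted p = 0.045), and also without the MCD male 2 at CT4 or the MCD male 1 at CT16 (-0.41 and -0.35, adjusted p = 0.011 and 0.044). The difference between the sexes, -0.54 ± 0.24, did not pass (edgeR, adjusted p = 0.33). Within males 6 of the 9 genes passed the diet test, against 39.6% of all genes, and within females 6, against 24.8%. The count in males was 8 without control CT08 a, Cish and Igfals being added, against 43.0% of all genes. Cish in males (-0.73, edgeR, adjusted p = 0.069) also passed with DESeq2 (adjusted p = 0.043) and without the control male 2 at CT20, the MCD female at CT0, the MCD male 2 at CT8 or the MCD male 1 at CT20. Igf1, Ghr, Stat5b and Igfbp2 changed in the same direction in both sexes and passed in each, except that Stat5b did not pass in females with library totals alone.

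**Figure D3:**
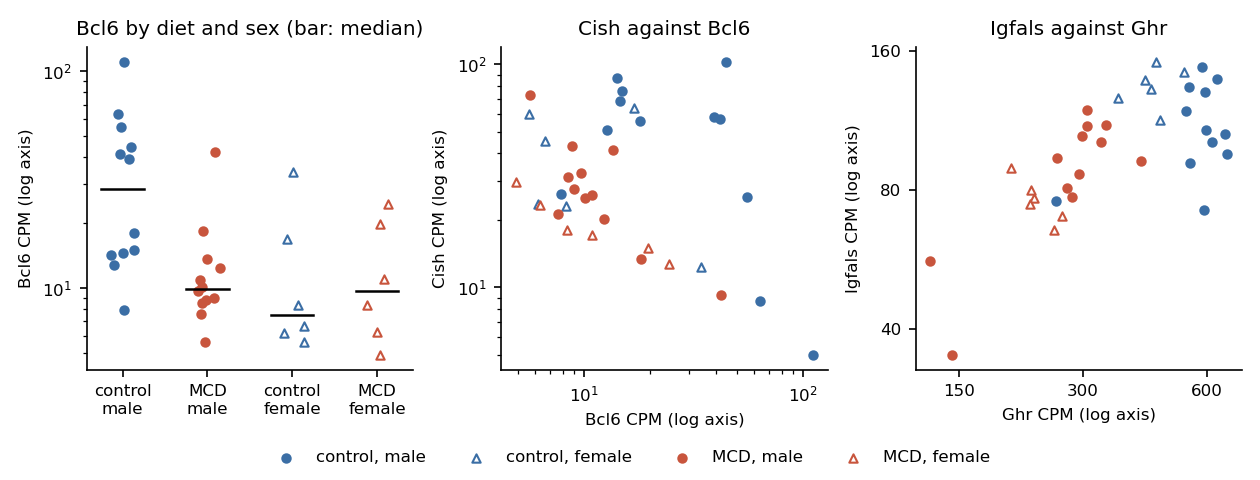
Left, Bcl6 CPM (log axis) by diet and sex, with medians as bars. Middle and right, Cish against Bcl6 and Igfals against Ghr, 1 point per liver on log axes; on MCD high Bcl6 goes with low Cish, and on MCD the Ghr and Igfals points rise together, the 2 lowest being males at CT4 and CT12.

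Relations between the genes were measured across the 18 livers of each diet on log2(CPM + 1), for 36 pairs and 2 diets, 72 relations in all, with two-sided permutation p adjusted over the 72. Livers share depth and composition across genes, and differ in time and sex. Bcl6 and Cish were opposed on MCD (r = -0.72, permutation p adjusted 0.030; rho = -0.61, adjusted 0.069), with r = -0.54 without the 2 livers farthest from the Bcl6 median, -0.70 within the 13 livers of the low mt-Nd6 kind and -0.72 after time and sex were removed. On control r was -0.41 (permutation p adjusted 0.26), 0.09 without the 2 farthest livers, -0.04 in the low kind and -0.68 in the high kind, and -0.64 after time and sex were removed. In individual livers, the control male 2 at CT20 had the highest Bcl6 of all, 111 CPM, and the lowest Cish, 4.97 CPM, and the MCD male 2 at CT0 had the highest Bcl6 on its diet, 42.2 CPM, and the lowest Cish, 9.29 CPM. Bcl6 and Socs2 were opposed on MCD by rank (rho = -0.70, permutation p adjusted 0.035; r = -0.57, adjusted 0.087).

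Ghr and Igfals rose together on MCD (r = 0.78, permutation p adjusted 0.023; rho = 0.77, adjusted 0.024), with r = 0.54 without the 2 farthest livers and 0.67 within the low kind. On control no single value describes the pair: r was 0.10 and rho -0.24, and r was -0.40 without control CT08 a, 0.55 after time and sex were removed, 0.60 within the 8 livers of the low kind and -0.52 within the 10 of the high kind. The difference between the diets was not tested. Igf1 and Igfals went together on control (rho = 0.73, permutation p adjusted 0.032; r = 0.65, adjusted 0.057), with r = 0.64 and 0.74 within the low and high kinds. Igfbp1 was opposed to Igfals on MCD (rho = -0.69, permutation p adjusted 0.035; r = -0.63, adjusted 0.057) and to Igf1 on MCD (rho = -0.69, permutation p adjusted 0.036; r = -0.56, adjusted 0.093), the second falling to r = -0.35 once time and sex were removed. Igfbp1 and Igfals on control had rho = -0.63 and r = -0.64 (permutation p adjusted 0.064 and 0.057). After time and sex were removed that pair had r = -0.20 on control and -0.66 on MCD.

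Exon bins, the stretches of a gene that belong to the same transcripts along their length, were counted in 34 livers (16 control, 18 MCD) and tested for a diet change relative to the rest of the gene. Of the 9 genes Igf1 passed (edgeR, gene-level adjusted p = 0.0077), against 3.45% of the genes tested. Bins were placed by GENCODE M21, which gives each of the 9 genes as many bins as the files do; the files themselves hold no coordinates. The 2 Igf1 bins with the smallest p were bin 1, which only transcript Igf1-207 holds and whose share of Igf1 reads was 0.0679% ± 0.0198 on control and 0.134% ± 0.0577 on MCD (SD, n = 16 and 18), and bin 7, which only Igf1-201 holds, with 0.166% ± 0.0521 and 0.239% ± 0.0672. Relative to the gene these bins changed by 0.92 and 0.56 (log2). Both are sparse, and the call was lost with a minimum count of 30 per bin and without replicate 2 or replicate 3 (edgeR, adjusted p = 0.10, 0.087 and 1). Replicate 3 is the female of every group, so the male livers alone did not give the call. Igf1 bins 11 and 12, which all 8 transcripts hold, and bin 15, which 6 hold, changed by -0.05, -0.03 and 0.01 relative to the gene.

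Ghr makes a full-length receptor and, from a transcript that ends early, the soluble growth hormone binding protein. Ghr bin 6 (chr15:3327539-3327686 in GRCm38, 148 bases) belongs to the short transcripts Ghr-202 and Ghr-203, and bins 3 and 4 (70 and 91 bases) to the full-length transcripts. In reads per base, the ratio of bin 6 to bins 3 and 4 was 0.807 ± 0.158 on control and 0.577 ± 0.0971 on MCD (SD, n = 16 and 18). The ranges overlapped, 0.591 to 1.14 against 0.454 to 0.827. The change was -0.47 on the log2 scale, 0.720-fold, with a permutation p of 3e-05 (two-sided, diet labels permuted within time and sex, adjusted 9e-05 over the 3 ratios examined). It was -0.57 and -0.47 within the low and high mt-Nd6 kinds and -0.52 without the 2 control males at CT8. The 6 control females ran from 0.729 to 1.14 and the 10 control males from 0.591 to 0.882, and on MCD both sexes lay between 0.454 and 0.827. These 3 ratios were chosen after the exon counts had been seen, and the test over all Ghr bins did not pass (edgeR, adjusted p = 1), bin 6 itself having an unadjusted p of 0.0043. The ratio of the second to the first Igf1 leader exon (bins 8 to 10 over bins 2 to 4) went from 0.182 ± 0.0140 to 0.160 ± 0.0225 (permutation p = 0.0049, adjusted 0.0074), and that of the alternatively included Igf1 exon (bin 13 over bin 12) from 0.776 ± 0.0400 to 0.732 ± 0.0768 (permutation p = 0.056).

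**Figure D4:**
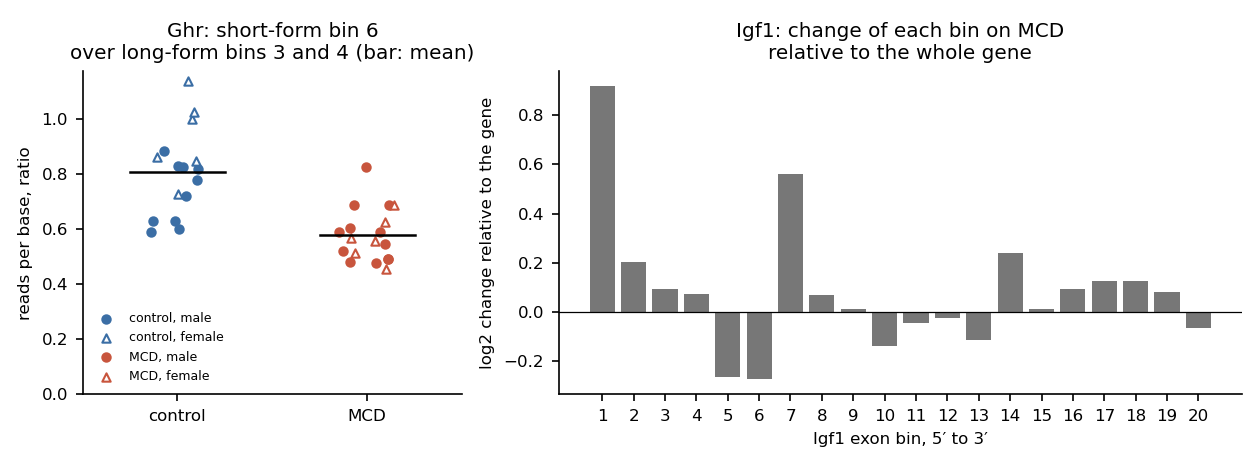
Left, ratio of reads per base in the short-form bin 6 to the long-form bins 3 and 4 of Ghr in each of 34 livers, with the mean as a bar; the MCD livers lie at 0.454 to 0.827. Right, log2 change of each Igf1 bin on MCD relative to the whole gene, bins numbered from the 5′ end; bins 1 and 7 stand above the others.

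The wider growth hormone signalling list held 14 tested genes, of which 5 rose and 1 fell on MCD, with a median change of 0.11 (log2) against 0.02 over all genes tested, of which 25.3% rose and 21.2% fell. The count that rose was 11 with library totals alone, where 52.5% of all genes rose, and 2 within the low mt-Nd6 kind, where 10.9% did, so that it moved with the share over all genes. Onecut1, a hepatocyte transcription factor, fell by -1.46 ± 0.27 (SE, edgeR, adjusted p = 8.3e-05). Trim24, a transcriptional cofactor, rose by 1.08 ± 0.17 (adjusted p = 1.3e-05). In males alone it rose by 1.48 ± 0.16, and in females its change of 0.29 ± 0.22 did not pass, a difference between the sexes that passed (-1.19 ± 0.27, edgeR, adjusted p = 0.019). Irs1, an adaptor of the insulin and IGF1 receptors, rose by 0.47 ± 0.07 (edgeR, adjusted p = 3.1e-06) and Grb10, an adaptor that binds the same receptors, by 0.30 ± 0.09 (adjusted p = 0.010). The IGF system list held 12 tested genes, of which 3 rose and 3 fell, 6 of 12 against 46.6% of all genes, with a median of 0.24; in the same 2 settings 6 and 0 rose. The binding protein genes Igfbp5 and Igfbp3 fell by -0.65 ± 0.16 and -0.34 ± 0.12, the insulin receptor gene Insr fell by -0.31 ± 0.06 and the IGF1 receptor gene Igf1r, at 2.70 to 8.74 CPM over all livers, rose by 0.29 ± 0.11 (SE, edgeR, adjusted p = 0.0019, 0.029, 0.00016 and 0.034). With library totals alone Igfbp3 changed by -0.07, Igfbp5 by -0.39 and Insr by -0.05, and none of these passed (edgeR, adjusted p = 0.71, 0.067 and 0.38). Igfbp3 also missed with the replicate block, within the low and the high mt-Nd6 kind (edgeR, adjusted p = 0.095, 0.12 and 0.47), and without the control female at CT0 or the control male 2 at CT16. The Igf1r call was lost in 14 of 36 omissions of single libraries, with changes down to 0.18, and in 4 of 8 alternatives, which were limma-voom (adjusted p = 0.079), a term for the library kind in edgeR (0.056) and each kind by itself (0.26 in the low, 0.22 in the high). Grb10 passed in neither kind (0.31 and 0.18, edgeR, adjusted p = 0.085 and 0.53). Within the high kind Irs1, Onecut1 and Igfbp5 changed by 0.36, -1.09 and -0.56 and did not pass (edgeR, adjusted p = 0.17, 0.34 and 0.14).

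Genes whose liver level follows the sex pattern of growth hormone were taken as 2 lists of 18. Of the male-biased genes 15 fell and 0 rose on MCD, with a median change of -1.91; of the female-biased genes 8 rose and 1 fell, with a median of 0.53. Of all genes 21.2% fell and 25.3% rose. The list counts pool the sexes, at 2 males to 1 female per group. A gene that moved in opposite directions in the sexes is counted by its pooled change. On control the female-minus-male difference had a median of -3.62 over the male-biased and 7.07 over the female-biased genes, and on MCD of -1.78 and 2.68. In the test of the diet change in females minus that in males, which 1.77% of all genes passed, 10 male-biased genes had a higher value and 6 female-biased genes a lower one, and none passed in the other direction. The first count was 6 without the MCD female at CT4, and the second was 10 without control CT08 a, 10 with DESeq2 and 11 with limma-voom. Of all 20249 genes, DESeq2 called 741 and limma-voom 382 in that test, against 359 in the main fit. The female-biased count of genes that rose ran from 2 to 8 over the 8 alternatives. It was 2 within the low mt-Nd6 kind, where 10.9% of all genes rose, and 4 with limma-voom, where 24.8% did. Among single libraries left out it went down to 5. Mup20, a major urinary protein gene, had medians of 5022 CPM in control males and 1439 CPM in MCD males, and of 59.2 and 387 CPM in control and MCD females. Cux2, a female-specific repressor, had medians of 0.667 and 2.59 CPM in males and of 66.8 and 30.4 CPM in females.

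**Figure D5:**
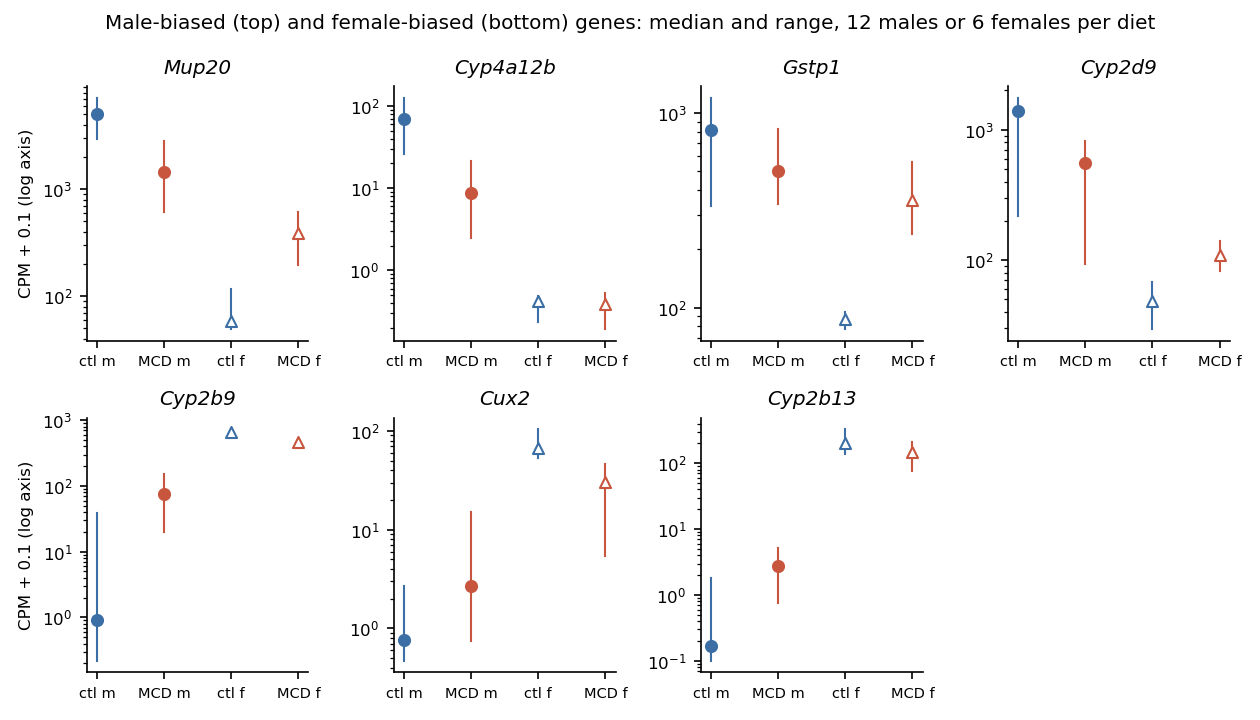
Median (symbol) and range (line) of CPM + 0.1 on a log axis for the 4 male-biased genes (top row) and 3 female-biased genes (bottom row) named by their sex-by-diet difference, in control (ctl) and MCD males (m, 12 livers) and females (f, 6 livers). The genes were picked for this difference, so that the sexes lie closer on MCD than on control follows from the choice; the medians of Cyp4a12b were 70.4 and 8.63 CPM in control and MCD males and 0.321 and 0.289 CPM in females.

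By Pearson r of log2 CPM over all 36 livers, the genes most like Ghr were Cyp2j5, 1300017J02Rik and Nat8f1 (r = 0.97, 0.96 and 0.96). Those most like Stat5b were Rnf125, Tymp and Coq8a (r = 0.91, 0.90 and 0.90), and those most like Igf1 were Ccs, Proz and Sucla2 (r = 0.93, 0.92 and 0.91). Igfals was most like Adtrp, Wfdc21 and Apoh (r = 0.88, 0.86 and 0.85), Igfbp1 most like Nr4a1, Hspbap1 and Gtpbp2 (r = 0.88, 0.83 and 0.82), and Igfbp2 most like Ung, Gm39079 and Pgap6 (r = 0.86, 0.86 and 0.85). For Bcl6 the closest were Snx29, Ddx6 and Ubn2 at r = 0.75, 0.73 and 0.73, and for Cish Phlda1, Arid5b and Rgs3 at 0.83, 0.81 and 0.79. Socs2 followed Gm9847 and then Wsb1 and Ugcg (r = 0.75 and 0.74). All these values include the difference between the diets.

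In the SCN, where the 7 neuron markers examined were all present at a summed level of 1630 to 4212 CPM, Stat5b was the highest of the 6 members listed, at 79.3 ± 9.86 CPM (SD, n = 36). Ghr was at 19.3 ± 3.46, Bcl6 at 11.7 ± 2.70, Socs2 at 5.49 ± 1.58, Cish at 5.04 ± 1.33 and Igfbp2 at 1.52 ± 0.625 CPM. None of the 6 passed the diet test there, against 0.0635% of all genes. In edgeR 0 of the 6 and 746 of all 15759 genes had an unadjusted p under 0.05, and limma-voom and DESeq2 called 0 of the 6. The diet change of Ghr was 0.03 with a 95% interval of -0.14 to 0.19, and that of Stat5b -0.05 with an interval of -0.15 to 0.04. In liver the same genes changed by -0.997 and -0.42; the difference between the tissues was not tested. No member passed the rhythm test in the SCN on either diet, against 15.1% of all genes on control and 16.1% on MCD. Stat5b came closest, with fitted ranges of 0.30 and 0.29 on control and MCD and peaks at 16.0 ± 1.18 h and 16.7 ± 1.29 h (SE, edgeR, adjusted p = 0.072 and 0.084), and limma-voom and DESeq2 called it on control.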

How the data were processed

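RNA was measured in liver and laser-microdissected SCN of the same design, 36 libraries per tissue. The authors deposited counts of reads per gene and per exon bin; per the submitters' processing notes the tools were Trimmomatic, HISAT2, StringTie and DESeq2 with the genome build GRCm39, and the sources used here do not state versions or settings. These counts were not normalized by the authors, as the deposited values show. Coordinates were taken from GENCODE M21 and RefSeq on GRCm38, matched by symbol, since no annotation of the files' build was used. The 9 genes and all gene lists were chosen with earlier results of these data known.

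Genes passing edgeR's filterByExpr with a minimum count of 10 entered a TMM-scaled model of 12 groups plus sex, tested by quasi-likelihood in edgeR 4.0.16 (R 4.3.3). A further model let the diet effect differ by sex. Rhythm was tested on the 24 h cosine and sine of the time means. Differences passed at a Benjamini-Hochberg adjusted p of 0.05 over all genes. Peak times came from log2 CPM with a prior count of 2. Exon bins were tested with edgeR, with Simes' method per gene. DESeq2 1.42.0, limma 3.58.1, library totals without TMM, no low-count filter, the replicate number as a block, the kind of library and each library left out in turn were the alternatives. The block replaced the sex term, since number 3 is always the female, and used 34 libraries per tissue, without the 2 unnumbered control males at CT8. The scripts were tested on simulated data. 2 columns of each gene table share 1 name, that of a control male at CT8; both were kept in that group as a and b. The exon-bin tables of 2 liver libraries, control males 1 and 2 at CT0, held fewer lines than the others and were left out. Which of the exon-bin libraries of the control males at CT8 is a is not known. No pair of replicates was a repeat of 1 library: the smallest chi-square per degree of freedom was 27.2 in liver and 24.1 in SCN. Total counts were 52.6 to 86.7 M in liver and 23.3 to 79.8 M in SCN. The protocol speaks of male mice while the labels name replicate 3 of each group female; the labels were followed.

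Besides the 9 genes, up to 4 called genes with a mean of at least 1 CPM were named per list, by the largest diet change (growth hormone signalling, IGF system) or the largest sex-by-diet difference (sex-biased lists), leaving out 1 gene that is not reported here, with the 3 genes most alike to each member and the 2 Igf1 bins with the smallest p.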

Additional observations from a re-analysis of the deposited data

Results flagged for a closer look

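The diet change differed between the sexes for 7 genes given here of the sex-biased lists, by the test of that difference (change in females minus change in males, log2 ± SE, edgeR adjusted p). Among male-biased genes the edgeR estimate was 4.18 ± 0.38 for Mup20 (edgeR adjusted p = 1.1e-06), 2.69 ± 0.70 for Cyp4a12b (edgeR adjusted p = 0.044), 2.67 ± 0.28 for Gstp1 (edgeR adjusted p = 6.6e-06) and 2.59 ± 0.53 for Cyp2d9 (edgeR adjusted p = 0.0092). Median levels of Gstp1 were 815 and 505 CPM in control and MCD males and 87.5 and 358 CPM in females. Among female-biased genes the difference was -5.56 ± 1.21 for Cyp2b9 (edgeR adjusted p = 0.015), -3.63 ± 0.76 for Cux2 (edgeR adjusted p = 0.012) and -3.52 ± 0.78 for Cyp2b13 (edgeR adjusted p = 0.018). Median levels of Cyp2b9 were 0.805 and 74.0 CPM in control and MCD males and 669 and 473 CPM in females. Medians under 1 CPM were found for Cyp4a12b in females of both diets and for Cux2 and Cyp2b9 in control males. The differences of these genes therefore rest in part on values near the floor. Cyp4a12b did not pass with limma-voom or with a replicate block (adjusted p = 0.50 and 0.088) and in 25 of 36 omissions of single libraries (edgeR adjusted p up to 0.10), and Cyp2b13 did not pass with the block (adjusted p = 0.054). These genes were chosen from among the largest such differences of their lists.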

How the results depend on the processing

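The count of genes called by diet, 8, was 6 to 8 over the other settings: 6 with library totals alone and within the low and the high mt-Nd6 kind, where 60.1%, 21.5% and 24.5% of all genes passed, and that of gene and time pairs, 22, was 20 to 26, and 19 to 25 with single libraries left out. The diet change of Socs2 reversed to 0.000123 with library totals alone and to 0.11 within the high mt-Nd6 kind; the cause was not tested. The Igfbp1 change at CT8, 0.19 and not called, ran from -0.11 to 0.51 with single libraries left out, and was -0.07 and -0.11 without MCD CT08 1 and control CT08 3. Rhythm on MCD was called for 4 genes, 4 to 5 over the other settings and 3 to 5 with single libraries left out. The rhythm difference was called for 0 genes, for 1 with library totals alone (Igf1), for 2 with DESeq2 (Igf1 and Bcl6), and for 0 to 1 with single libraries left out. That count was 1 without control CT08 3, MCD CT04 1, MCD CT08 3 or MCD CT12 2 (Igf1) or control CT20 2 (Bcl6). Of all 20249 genes, 986 were called in the main fit, 759 with library totals alone and 2060 with DESeq2. The sex difference was called for 0, for 1 each with limma-voom and DESeq2 (Bcl6), for 1 with the replicate block, a fit that also lacks control CT08 a (Ghr), and for 0 to 1 with libraries left out, 1 being Ghr without control CT08 a. The sex-by-diet difference was called for 0, for 1 with DESeq2 (Bcl6), and for 0 to 1 with libraries left out, 1 being Bcl6 without MCD CT00 3. In the SCN, rhythm on control was called for 0, for 1 each with limma-voom and DESeq2 (Stat5b), and for 0 to 1 with libraries left out (without control CT04 3 or MCD CT04 3); on MCD it was 0 to 1 (without control CT04 3 or MCD CT16 1). Exon usage was called for 1 gene, for 0 with a minimum count of 30 per bin, and for 0 to 1 with a replicate number left out. Same-numbered samples did not deviate together (r of residuals -0.21 to 0.29 in liver, over 0.1 in 5 of 16 pairs, and -0.17 to 0.25 in SCN, in 4 of 16), so the numbers were not taken as pairs. With the replicate block 8 genes were again called by diet.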
